A study of Mus musculus with 2 samples.

Results

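Mirlet7b, Mirlet7d, Mirlet7e, Mirlet7g, Mirlet7i and Mir98 are let-7 genes with a mature sequence of their own. They are 6 of the 2202 microRNA (miRNA) genes counted in old mouse heart. Mir7j and Mir7k, with mature sequences of 24 and 19 bases, also have their own but are not among the 6. The 6 were taken by name, for their mature sequences, with earlier results of these data known, and all 6 were found in the annotation. The series holds 2 small RNA libraries of 1 group, labelled biological replicates 1 and 2. Both come from heart tissue of male B6CASTF1/J mice, a cross of C57BL/6J and CAST/EiJ, aged 18 to 20 months, with no treatment given in the labels. Each library has its own biosample in the labels, but both are tied to 1 donor record, so their spread may be technical. Whole heart mixes many cell types, and fewer cells of a type cannot be told apart here from less RNA per cell. With 1 group there is no comparison of conditions, so the questions are how much of each let-7 gene was counted in this tissue and how far the libraries differ.

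MicroRNAs are cut from hairpin precursors and repress messenger RNAs, which they find mainly through the seed, a short stretch near their 5′ end. The let-7 miRNAs, first found in Caenorhabditis elegans as timers of larval development, accumulate as tissues differentiate and repress growth genes such as Hmga2, Lin28 and Ras family genes. In human stem-cell-derived heart muscle cells, let-7 is known to promote maturation, and in mouse heart miR-98 is known as a repressor of cyclin D2 in hypertrophic growth.

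The mature 5p miRNAs, the arm that in let-7 hairpins is the main product, carry the family's shared seed and the few bases by which a read can be told from its relatives. They are given 5′ to 3′ from RefSeq (GRCm38.p6), with the seed, bases 2 to 8, in capitals.
let-7b-5p: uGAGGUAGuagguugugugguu
let-7i-5p: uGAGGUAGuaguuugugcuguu
let-7g-5p: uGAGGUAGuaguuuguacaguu
let-7d-5p: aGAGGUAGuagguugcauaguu
let-7e-5p: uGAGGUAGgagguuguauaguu
miR-98-5p: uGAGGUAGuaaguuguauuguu
The 3 relatives that are each encoded by a pair of genes are shown for contrast.
let-7a-5p: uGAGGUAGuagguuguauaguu
let-7c-5p: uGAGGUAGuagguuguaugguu
let-7f-5p: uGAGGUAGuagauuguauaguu

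All 6 miRNAs were 22 bases long and had the same seed, and 14 of the 22 positions held the same base in all 6. Positions below are counted from 1 at the 5′ end, with the base of let-7a-5p first. Relative to let-7a-5p, let-7e-5p had the single change U9G, next to the seed. Both changes of let-7b-5p, A17G and A19G, lay near the 3′ end, and those of let-7d-5p were U1A and U16C. The differences were G12U and U18C in let-7g-5p and G11A and A19U in miR-98-5p. The farthest from let-7a-5p was let-7i-5p, with G12U, A17G, U18C and A19U. Between 2 of the 6 miRNAs there were 2 to 6 differences over 15 pairs, with let-7g-5p and let-7i-5p the closest and let-7d-5p and let-7i-5p the farthest. The nearest relatives of all lay outside the 6, since let-7b-5p differed from let-7c-5p, and let-7e-5p from let-7a-5p, by 1 base.

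These few bases bear on the counts, because reads mapped to several places were tallied apart from the gene counts. Each of the 6 mature sequences occurred in 1 of the 2202 annotated hairpins, while those of let-7a, let-7c and let-7f each occurred in a pair. None of the 6 hairpins shared a stretch of 22 bases with another hairpin. Of the 14 let-7 family genes 6 did, and of all 2202 miRNA genes 1023 did. The first 17 bases were enough to place let-7b-5p, let-7e-5p, let-7g-5p and let-7i-5p in a single hairpin, the first 11 for miR-98-5p and the first 9 for let-7d-5p. Shorter reads from the 5′ end could not be placed among these hairpins. Only exact matches were sought, so reads with mismatches are not covered, and the rest of the genome was not searched. The gene counts do not separate the arms of a hairpin, and the 3p miRNAs of the 6 genes also occurred in 1 hairpin each.

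Replicate 1 held 3037063 reads in miRNA genes and replicate 2 held 5284446. Levels are given as CPM, reads per 1000000 reads in miRNA genes of the library. A read stands for a miRNA of about the same length in each of these genes, so no length correction was made. Heart muscle markers were present, with 7 of 8 listed genes at 10 or more reads in both libraries and 1.08% and 1.48% of the reads in replicates 1 and 2. Nearly all of this came from Mir208a (5184 and 9154 CPM) and Mir499 (5559 and 5487 CPM). The Mir1a and Mir133 genes lay between 2.63 and 27.7 CPM. Reads mapped to several places, 40.7% and 32.5% of all reads in replicates 1 and 2, are in no gene count. Mir1a-1 and Mir1a-2, and Mir133a-1 and Mir133a-2, are numbered copies that can lose such reads. Mir133b, which is not a numbered copy, had 9.22 and 9.65 CPM in replicates 1 and 2. Whether lost reads make the heart muscle share too low beside those of other cell types was not tested. Brain markers (1 of 7 detected) took 0.00362% and 0.00755%, nearly all of it Mir137 with 109 and 396 reads, and Mir9-2 and the 3 Mir124a genes had no read in either library. Red blood cell markers (3 of 3 detected) took 0.820% and 0.254% of the reads in replicates 1 and 2, and epithelial markers (6 of 7 detected) 0.0298% and 0.387%. Endothelial markers (3 of 3) took 8.68% and 11.5%, smooth muscle markers (2 of 2) 4.57% and 4.06%, and leukocyte markers (4 of 4) 0.656% and 0.724%. The 2 liver markers took 0.00678% and 0.00467%.

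Together the 6 genes took 24.3% ± 0.555 of all counted miRNA reads (SD, n = 2). The share was 24.7% in replicate 1 (749447 reads, 95% Wilson interval 24.6 to 24.7) and 23.9% in replicate 2 (1262566 reads, 23.9 to 23.9). The libraries thus differed in this share by less than 1 percentage point. Of the reads of the 14 let-7 family genes, the 6 supplied 95.9% ± 0.303, which was 96.1% in replicate 1 and 95.7% in replicate 2. Most of that came from 4 genes, Mirlet7b, Mirlet7i, Mirlet7g and Mirlet7d, which made up 92.9% ± 0.583 of let-7 reads. These are shares of counted reads, and the let-7a, let-7c and let-7f genes can lose reads that fit both of their copies. Reads mapped to several places were 4.95 times the counted let-7 reads in replicate 1 and 4.82 times in replicate 2, and which miRNAs they hold is not in the counts. As a bound chosen after seeing the data, the 6 genes would make up 16.3% of let-7 reads if every such read were let-7.

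**Figure D1:**
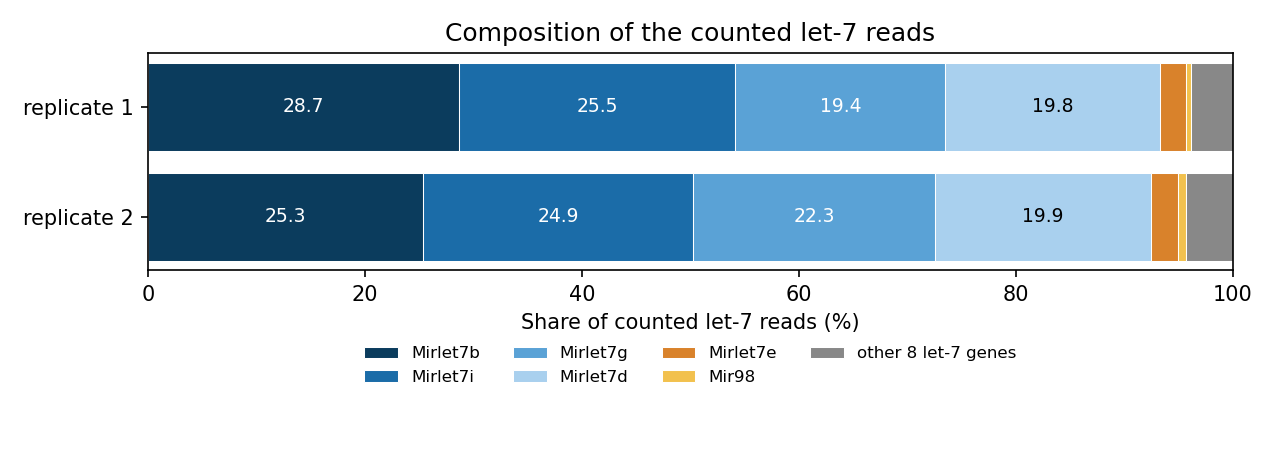
Composition of the counted let-7 reads, with 1 bar per library and the share of each gene in percent on the x axis. Mirlet7b, Mirlet7i, Mirlet7g and Mirlet7d fill 93.3% of the bar in replicate 1 and 92.5% in replicate 2, and the other 8 let-7 genes are pooled in grey.

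Mirlet7b was the most abundant of the 6. Its hairpin (ENSMUSG00000065564.1, chromosome 15, 85707319 to 85707403, plus strand, GRCm38) lies within an exon of the long noncoding RNA Lncppara. It had 223441 reads in replicate 1 and 334242 in replicate 2, or 73571 and 63250 CPM (68411 ± 7298, SD, n = 2). By counted reads it was number 3 among all miRNA genes in both libraries. Such ranks leave out reads mapped to several places, so miRNAs encoded by several genes can stand too low in them. Of the let-7 reads, Mirlet7b held 28.7% in replicate 1 and 25.3% in replicate 2.

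Mirlet7i came next, alone among the 6 in having no other miRNA gene within 50 kb on its strand. Its hairpin (ENSMUSG00000065406.3, chromosome 10, 122985640 to 122985724, minus strand) lies in an exon of 1 of 2 transcripts of the transcribed pseudogene D630033A02Rik. It had 198607 and 328697 reads in replicates 1 and 2, which were 65394 and 62201 CPM (63798 ± 2258, SD, n = 2). Its share of let-7 reads was steady at 25.5% and 24.9%.

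Mirlet7g and Mirlet7d were close to each other. The Mirlet7g hairpin (ENSMUSG00000065440.1, chromosome 9, 106178840 to 106178927, plus strand) lies in an intron of Wdr82, which encodes a subunit of a histone H3 methyltransferase complex. It had 151071 and 294074 reads in replicates 1 and 2, or 49743 and 55649 CPM (52696 ± 4177, SD, n = 2). The Mirlet7d hairpin (ENSMUSG00000065453.1, chromosome 13, 48536012 to 48536114, minus strand) lies in an exon of the noncoding gene 6720427I07Rik, the transcript that also holds Mirlet7a-1 and Mirlet7f-1. It had 154132 and 262757 reads, or 50750 and 49723 CPM (50237 ± 727, SD, n = 2). Mirlet7d was higher than Mirlet7g in replicate 1 and lower in replicate 2.

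Mirlet7e stood well below these 4. Its hairpin (ENSMUSG00000105758.1, chromosome 17, 17830352 to 17830444, plus strand) lies in an intron of Spaca6, a gene known for its role in the fusion of sperm and egg. It had 19051 reads in replicate 1 and 33589 in replicate 2, or 6273 and 6356 CPM (6315 ± 58.9, SD, n = 2), the smallest relative spread of the 6 at 0.934% of the mean. It ranked 27th of the miRNA genes by mean level.

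Mir98 was the least abundant and the most variable. Its hairpin (ENSMUSG00000065536.2, chromosome X, 151913214 to 151913321, plus strand) lies in an intron of Huwe1, which encodes a large ubiquitin ligase. It had 3145 and 9207 reads in replicates 1 and 2, or 1036 and 1742 CPM (1389 ± 500, SD, n = 2). The spread was 36.0% of the mean, against 10.7% for Mirlet7b and less for the other 4. Its share of let-7 reads was 0.403% in replicate 1 and 0.698% in replicate 2.

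**Figure D2:**
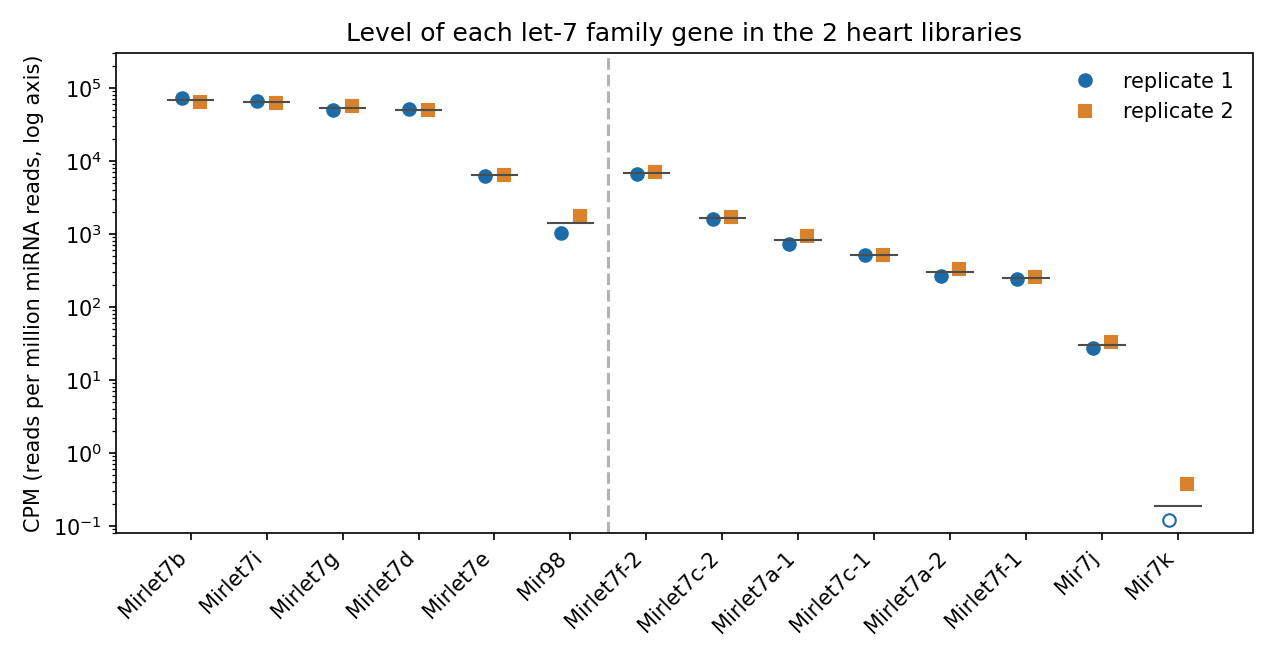
Level of each let-7 family gene in CPM on a log axis. The 6 genes lie left of the dashed line and the other 8 family genes right of it. Circles are replicate 1, squares replicate 2 and bars their mean, and the open circle marks a count of 0 for Mir7k in replicate 1. The 4 leading genes lie between 49723 and 73571 CPM, while Mirlet7e has 6273 and 6356 CPM and Mir98 has 1036 and 1742 CPM.

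Not every step in this order was larger than the spread between the libraries. Steps were taken as ratios of reads within a library, which no scaling of whole libraries can move. Mirlet7b exceeded Mirlet7i 1.13-fold in replicate 1 (95% exact interval 1.12 to 1.13) and 1.02-fold in replicate 2 (1.01 to 1.02), a mean log2 ratio of 0.10 ± 0.10 that was within 1 SD of 0. Mirlet7g over Mirlet7d was 0.980 in replicate 1 and 1.12 in replicate 2, so their order turned. Mirlet7i exceeded Mirlet7g 1.31-fold and 1.12-fold, a mean log2 ratio of 0.28 ± 0.17. The leading pair, Mirlet7b and Mirlet7i, and the pair of Mirlet7g and Mirlet7d thus did not differ beyond the spread between the libraries.

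The 2 other steps were far larger. Mirlet7d exceeded Mirlet7e 8.09-fold in replicate 1 and 7.82-fold in replicate 2, a mean log2 ratio of 2.99 ± 0.03 (SD, n = 2). Mirlet7e exceeded Mir98 6.06-fold and 3.65-fold, a mean log2 ratio of 2.23 ± 0.52. Across all 15 pairs, 13 kept their order in both libraries with a mean log2 ratio above 1 SD. The order was not tested, because the smallest p of an exact sign-flip test with 2 libraries is 0.5.

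For scale among the other miRNAs, the closest gene outside the let-7 family was sought by distance in log2(CPM + 1) over the 2 libraries. It was Mir23a for both Mirlet7b (distance 0.71) and Mirlet7i (0.65), and Mir143, a smooth muscle miRNA, for both Mirlet7d (0.42) and Mirlet7g (0.56). Mirlet7e was closest to Mir30e (0.21), and Mir98 to Mir17 (0.32), a member of a cell-cycle cluster. With 2 libraries this describes similar levels only.

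4 of the 6 genes have another miRNA gene within 10 kb on the same strand. Upstream of Mirlet7b, across a gap of 622 bases, lies Mirlet7c-2, in the same noncoding host. Mirlet7b had 45.4 times the reads of Mirlet7c-2 in replicate 1 (95% exact interval 44.2 to 46.7) and 37.0 times in replicate 2 (36.2 to 37.8). Mirlet7d had 70.9 and 53.4 times the reads of Mirlet7a-1 and 207 and 192 times those of Mirlet7f-1. All 3 of these neighbours make a mature miRNA that a second gene also makes, and their hairpins share 22 or more bases with it or with another let-7 hairpin. Reads that fit more than 1 hairpin are in no gene count, so these ratios hold for counted reads only.

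Mir98 showed the opposite order. Its neighbour Mirlet7f-2, 786 bases away also in an intron of Huwe1, had 19883 and 36674 reads although let-7f-5p is also made from Mirlet7f-1. Mir98 over Mirlet7f-2 was 0.158 in replicate 1 (95% exact interval 0.152 to 0.164) and 0.251 in replicate 2 (0.245 to 0.257). By counted reads Mir98 was the only one of the 4 with a let-7 neighbour above its own level, and Mirlet7e has no let-7 neighbour. The 3 let-7 neighbours of Mirlet7b and Mirlet7d were below them in counted reads. Those 3 can lose reads that fit a second gene, so the counts cannot settle whether their miRNAs are less abundant.

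Mirlet7e lies in a cluster known from many animals, between Mir99b, 95 bases upstream, and Mir125a, 368 bases downstream. The 3 genes had mean levels of the same order, 6315 CPM for Mirlet7e, 6820 CPM for Mir99b and 8019 CPM for Mir125a. Mirlet7e over Mir125a was 0.844 in replicate 1 and 0.739 in replicate 2, a mean log2 ratio of -0.34 ± 0.14 (SD, n = 2). Its ratio to Mir99b was below 1 in replicate 1 (0.617, 95% exact interval 0.606 to 0.628) and above 1 in replicate 2 (1.83, 1.80 to 1.86). The levels of Mir99b itself were 10166 and 3474 CPM in replicates 1 and 2, while Mirlet7e had 6273 and 6356 CPM. Within this cluster the libraries thus differed widely at Mir99b and little at Mirlet7e. The intervals of the ratio to Mir99b did not overlap between the libraries. Those of the ratio to Mir125a (0.828 to 0.860 and 0.728 to 0.749) did not either, so this alone does not set Mir99b apart.

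**Figure D3:**
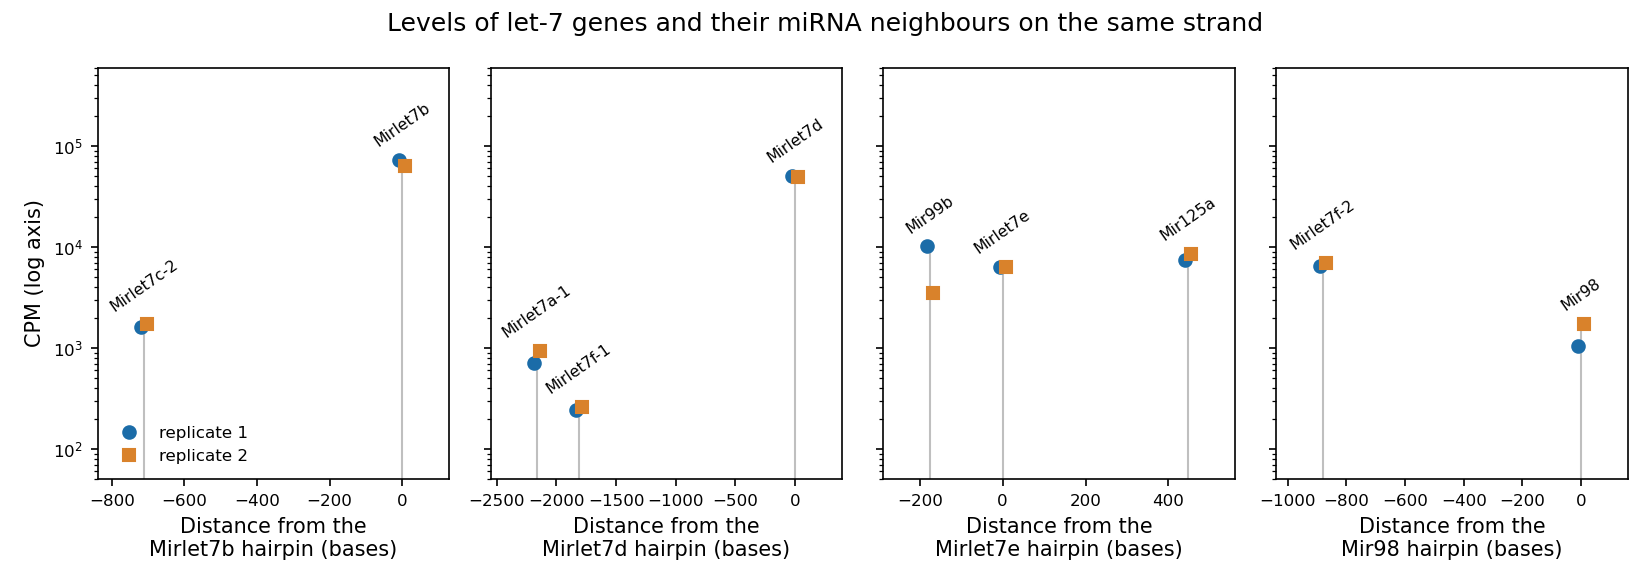
Levels in CPM (log axis) of Mirlet7b, Mirlet7d, Mirlet7e and Mir98 and of the miRNA genes within 10 kb on the same strand, by distance in bases from the named hairpin in the direction of transcription. Circles are replicate 1 and squares replicate 2. In counted reads, Mirlet7b and Mirlet7d stand 37.0 to 207 times above their neighbours, which can lose reads that fit a second gene. Mirlet7e is a little below Mir125a, and Mir98 is below Mirlet7f-2.

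Mirlet7g has 1 miRNA gene within 50 kb, Mir135a-1, with 0 and 2 reads in replicates 1 and 2, at or under the 3 reads that a count of 0 allows. By counted reads, the other let-7 family genes were all below the 4 leading ones, though the let-7a, let-7c and let-7f genes can lose reads that fit both copies. Mirlet7f-2, at 6743 ± 278 CPM (SD, n = 2), was slightly above Mirlet7e in both libraries. Mirlet7c-2, at 1665 ± 63.4 CPM, was above Mir98 in replicate 1 and below it in replicate 2. Mirlet7a-1, Mirlet7c-1, Mirlet7a-2 and Mirlet7f-1 had mean levels from 823 down to 252 CPM. Mir7j, the gene of let-7j, had 82 and 174 reads, and Mir7k, the gene of let-7k, had 0 and 2. The let-7j sequence differs from let-7i-5p over its first 22 bases by G8U alone, which lies in the seed. Of genes outside the family by name, RefSeq gives the let-7 seed to Mir1961, which had no read in either library.

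For each of 424 genes with a summed count of 10 or more, the reads of the libraries were set against their totals in a two-sided exact binomial test, with Benjamini-Hochberg adjustment. Such a test asks only whether these 2 libraries differ by more than counting error. In it, 5 of the 6 genes differed, while 224 of the 424 genes did (52.8%). Because abundant genes are measured with little counting error, 64 of the 67 genes with a mean of at least 1000 CPM were called (95.5%), a limit chosen after the levels were seen. The count of 5 is therefore no mark of let-7. The exact test of edgeR called none of the 6 (adjusted p = 1 for each; 0 of 6 at an unadjusted p under 0.05, the smallest being 0.386) and 12 of the 424 genes (2.83%; 31 at an unadjusted p under 0.05). Its dispersion, a coefficient of variation of 40.5%, comes from the very difference between these libraries that it tests, so differences of the size seen here could hardly pass and its count of 0 does not weigh against the count of 5.

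The sizes of the differences were small for 5 of the 6. As log2 ratios of replicate 1 over replicate 2, they were 0.22 for Mirlet7b (95% exact interval 0.21 to 0.23), 0.07 for Mirlet7i (adjusted p = 3.04e-68, exact binomial test) and 0.03 for Mirlet7d (adjusted p = 7.94e-10). All 3 were higher in replicate 1, and the p for Mirlet7b was too small to compute. Of all tested genes, 21.9% were called higher in replicate 1. Mirlet7g was lower in replicate 1 by -0.16 (interval -0.17 to -0.15; adjusted p = 3.47e-277, exact binomial test). Mirlet7e, at -0.02 (interval -0.04 to 0.01; adjusted p = 0.228, exact binomial test), was not called.

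Mir98 differed most, by -0.75 as a log2 ratio (adjusted p = 6.63e-150, exact binomial test; interval -0.81 to -0.69), and was higher in replicate 2, as were 30.9% of all tested genes. Its neighbour Mirlet7f-2 had a log2 ratio of -0.08. The median absolute log2 ratio was 0.12 over the 6 genes, 0.28 over the 67 genes with at least 1000 CPM and 0.38 over the 321 genes that reached 10 reads in each library. For Mir99b the log2 ratio was 1.55, beyond counting error, though the exact test of edgeR, limited as stated above, did not call it (adjusted p = 0.782). The summed level of red blood cell markers was higher in replicate 1 and that of epithelial markers in replicate 2, as given above, but their members went both ways. Mir144 (2265 and 271 CPM in replicates 1 and 2) and Mir451a (4900 and 948 CPM) went with the red blood cell sum. Mir486 (1035 and 1324 CPM) went against it. Mir200b (32.9 and 21.6 CPM) and Mir429 (19.4 and 12.1 CPM) went against the epithelial sum. The epithelial sum in replicate 2 was mostly Mir205 (2.30 and 1963 CPM) and Mir200c (82.6 and 1652 CPM). The part of these cell types in the differences of the let-7 genes was not tested.

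**Figure D4:**
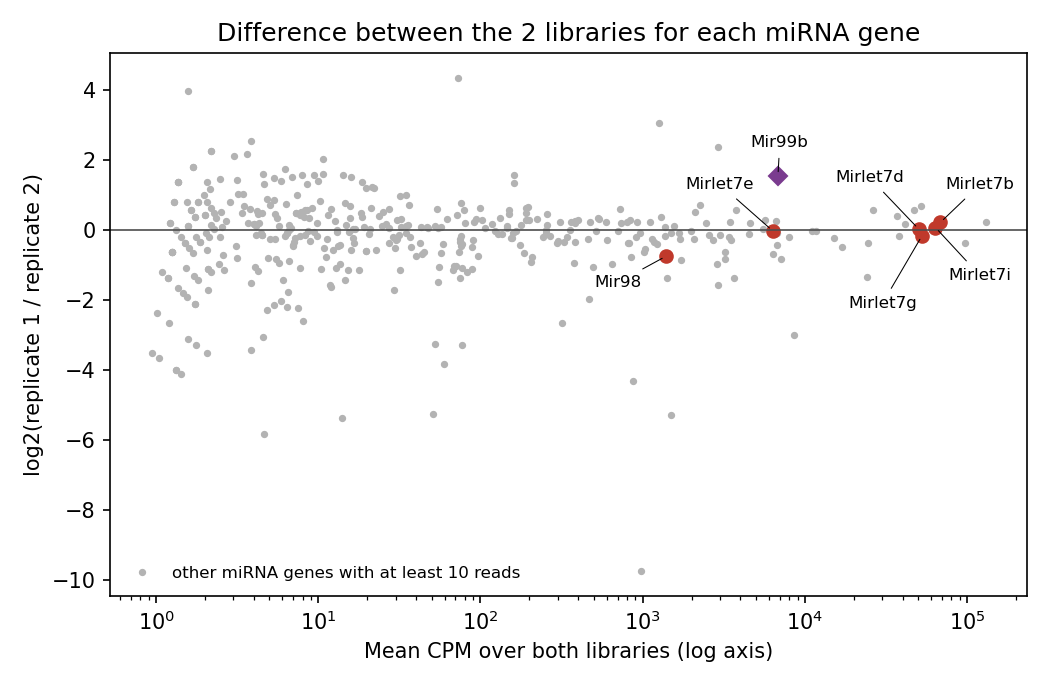
Log2 ratio of replicate 1 over replicate 2 for each of 424 miRNA genes against its mean CPM on a log axis, with the 6 let-7 genes as red circles and Mir99b as a purple diamond. The 6 genes lie between -0.75 for Mir98 and 0.22 for Mirlet7b, while Mir99b stands at 1.55.

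What the 6 hairpins share beyond the seed was looked for in the stretch between their arms, which becomes the loop of the precursor. Let-7 precursors are known for a long loop that carries GGAG, the letters to which the zinc knuckles of the protein LIN28 bind when it blocks their processing. The hairpins are given whole, from RefSeq (GRCm38.p6), with GGAG in capitals where it lies between the arms.
Mirlet7b: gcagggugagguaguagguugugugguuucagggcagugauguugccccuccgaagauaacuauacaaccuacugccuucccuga
Mirlet7i: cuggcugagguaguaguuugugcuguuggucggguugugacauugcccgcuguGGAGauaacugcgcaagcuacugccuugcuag
Mirlet7g: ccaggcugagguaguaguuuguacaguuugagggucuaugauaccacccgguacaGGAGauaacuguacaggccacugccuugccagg
Mirlet7d: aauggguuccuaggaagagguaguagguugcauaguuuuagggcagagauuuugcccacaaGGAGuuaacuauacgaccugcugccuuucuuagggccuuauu
Mirlet7e: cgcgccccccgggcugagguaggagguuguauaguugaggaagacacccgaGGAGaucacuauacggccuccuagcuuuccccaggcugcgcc
Mir98: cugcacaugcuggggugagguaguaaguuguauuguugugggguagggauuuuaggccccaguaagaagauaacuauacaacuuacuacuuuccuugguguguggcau

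The stretch between the arms was 23 bases in Mirlet7e, 32 in Mirlet7b and Mirlet7d, 34 in Mirlet7g and Mirlet7i, and 36 in Mir98. The median was 33 bases, against 16 over the 644 RefSeq mouse hairpins with both arms, of which 12.0% had 23 or more. Other let-7 hairpins were long there too, with 29 bases in Mirlet7a-1, 23 in Mirlet7c-1 and 26 in Mirlet7c-2. Mirlet7f-1 had 34 and Mirlet7f-2 had 28, so the length did not set the 6 apart from these relatives. GGAG, searched on the transcribed strand alone, lay between the arms in Mirlet7i, Mirlet7g, Mirlet7d and Mirlet7e, 3 or 4 bases before the 3p miRNA. It did not occur there in Mirlet7b and Mir98. Of all 644 hairpins 8.07% held it between the arms, and of the 61 with a stretch of 23 to 36 bases, the 6 included, 24.6% did. The other let-7 hairpins were not looked at separately for GGAG, so whether it sets the 6 apart from these relatives was not tested. The genes without these letters were the highest of the 6, Mirlet7b, and the lowest, Mir98, and the 4 with them lay between, from 6315 to 63798 CPM in the mean.

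**Figure D5:**
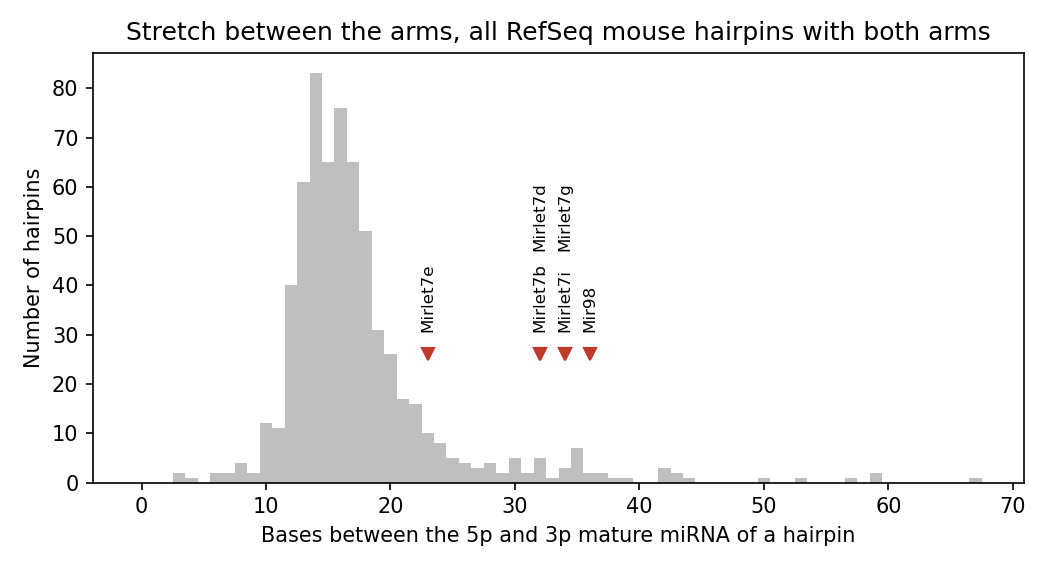
Number of bases between the 5p and 3p mature miRNA (x axis) over the 644 RefSeq mouse hairpins with both arms, as counts per length in grey, with triangles at the lengths of the 6 let-7 genes. The genes lie at 23 to 36 bases, right of the median of 16.

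The level of Mirlet7e depends on the counting of strands. On the minus strand the annotation has a second miRNA gene, Gm25927 (chromosome 17, 17830343 to 17830459), which covers the whole Mirlet7e hairpin. In the column for reads on either strand, Mirlet7e and Gm25927 both had 0 reads in both libraries, against 19051 and 33589 reads for Mirlet7e in the sense column. The column for the opposite strand held these same 2 numbers for Gm25927. Of 64 miRNA genes overlapped in this way, 23 had at least 10 sense reads in each library, and 21 of those 23 had none in the column for either strand. Mirlet7e was the only one of the 6 among the 64.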

How the data were processed

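Per the labels, the libraries were miRNA-seq from total RNA with a size range under 30, aligned to mm10 (GRCm38). The authors deposited whole-number read counts per miRNA gene, not normalized, with GENCODE M21 as annotation per the text deposited beside them. The aligner and the counter were not given in the sources used here. No source names the strand of a count column, so the column with more miRNA reads in both libraries was taken as sense. Summary lines stayed out of totals. Reads of CAST/EiJ alleles unlike the reference may be missing, which was not tested. Unmapped reads were 19.4% and 34.3% of all reads in replicates 1 and 2, those mapped to several places 40.7% and 32.5%, and those outside miRNA genes 7.79% and 6.27%. All 2202 IDs matched the annotation, and all 6 hairpins had the same letters and coordinates in RefSeq. The 14 family genes include Mir7j and Mir7k, the names given there to let-7j and let-7k.

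The 6 genes, the lists, the marker genes and the tests were chosen with earlier results of these data known. The text names the 6 genes, the rest of the family, miRNA genes within 10 or 50 kb on the same strand, overlapping genes, the closest gene in level and genes with the let-7 seed. A gene was detected with at least 10 reads in each library. Tests had a threshold of 0.05. Intervals are at 95% (Wilson for shares, Clopper-Pearson for ratios) and cover counting error only, since no molecular identifiers are recorded. A count of 0 allows 3 reads, or 0.988 and 0.568 CPM. Python 3.11.15, scipy 1.17.1, R 4.3.3, edgeR 4.0.16 (TMM, common dispersion, exact test) and DESeq2 1.42.0 (size factors) were used. The tests were also tried on simulated data. The edgeR dispersion came from genes detected in both libraries. Alternatives were other scalings, denominators, count columns, filters, tests and leaving out a library.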

Additional observations from a re-analysis of the deposited data

Results flagged for a closer look

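Reads on the strand opposite the Mirlet7b hairpin, where no other miRNA gene is annotated, were above the 3 that a count of 0 allows in both libraries. There were 6 such reads in replicate 1 and 13 in replicate 2, beside 223441 and 334242 sense reads. Mir98 had 0 and 1, and the other 4 genes had none.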

How the results depend on the processing

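No paired analysis was possible because the labels give 1 group. TMM and DESeq2 size factors moved log2 ratios between the libraries by 0.01 and 0.02, and kept each of the 6 levels within the spread between the libraries. The log2 ratio of Mirlet7e, which was not called, was 0.000136 with DESeq2 size factors in place of -0.02. Per all reads, unassigned ones included, the 6 genes took 7.18% in place of 24.3%, and in the column for either strand 31.9%. All 6 levels moved beyond the spread with the first, and 5 with the second. In the column for either strand Mirlet7b had 223447 and 334255 reads in replicates 1 and 2. Mirlet7d, Mirlet7g and Mirlet7i kept their sense reads in that column. The higher levels of these 4 genes thus came from a smaller total of counted reads in the column for either strand. There Mirlet7e had 0 reads, so its ratios to Mirlet7d and Mir98 have no value. The share of let-7 reads stayed within the spread (95.9% with the family set by seed and in the column for either strand) and was 16.3%, by a setting added after seeing the data, with all reads mapped to several places taken as let-7. The number of the 6 genes that differed between the libraries stayed at 5 with other scalings, no filter and the column for either strand, and was 0 in the exact test of edgeR, whose dispersion comes from the same pair of libraries, so this 0 says nothing of stability.

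Leaving out a library leaves the other's value, by construction within 1 SD of the mean. The shares were 23.9% to 24.7% of counted and 95.7% to 96.1% of let-7 reads. The log2 ratios were 0.02 to 0.17 for Mirlet7b over Mirlet7i, 0.16 to 0.39 for Mirlet7i over Mirlet7g, -0.03 to 0.16 for Mirlet7g over Mirlet7d, 2.97 to 3.02 for Mirlet7d over Mirlet7e and 1.87 to 2.60 for Mirlet7e over Mir98. Depth does not limit the 6 genes, the least of which had 3145 reads. Differences in the ligation of single miRNAs were not tested.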
